A study of Mus musculus with 8 samples.

Results

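Meiotic double-strand break formation genes encode the proteins that cut chromosomes so that homologs can recombine. The set comprised 6 genes, namely Spo11, Rec114, Mei4, Mei1, Ankrd31 and Prdm9, chosen by symbol from the 55421 genes of the count table, each present as 1 row. SPO11 is the enzyme that makes the break. REC114 and MEI4 form an accessory complex on the chromosome axis, ANKRD31 binds REC114, and MEI1 is likewise required for breaks to form. PRDM9 is a histone methyltransferase with zinc fingers whose DNA binding marks the hotspots where breaks are placed. In the testis these genes come into use as spermatogonia enter meiosis, a step at which retinoic acid turns on Stra8, and STRA8 acts with its partner MEIOSIN on promoters of meiotic genes.

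RNA was sequenced from SSC culture, which is a primary culture of undifferentiated mouse spermatogonia from neonatal testes (C57BL/6XDBA/2 background) kept on irradiated CF1 embryonic fibroblast feeders with N2, bFGF and GDNF. Cultures labelled Stra8KO and cultures labelled Spo11KO were kept for 2 days with vehicle (Veh) or with NRRA, a nutrient restriction medium based on a balanced salt solution combined with retinoic acid. By the study's list of media, the restriction medium is mostly salt solution with a small part of complete medium. N2, bFGF and GDNF are thus diluted in it too, although the labels give the same bFGF and GDNF for all libraries. Genotype and medium gave 4 groups, each with 2 libraries. The study also sequenced wild-type cultures, none of which was analysed here. The study compared the genotypes to ask whether the meiotic gene program induced by NRRA needs Stra8. The cultures (STRA8KO and SPO11KO in the labels) were derived from mice deficient for the one gene or the other, and the feeders were not of these mice. The study identifies both lines of mice by stock numbers and does not say which exons the alleles lack. The study states that its sequencing had 2 independent biological replicates, and that replicates came from different mice, tissues or cells. It does not say if both libraries of a group had a culture line of their own. The p-values thus measure the spread between these libraries, and genotype and culture cannot be told apart.

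The libraries held 20960794 to 27038868 counts. Levels are given in CPM, which stands for counts at a common TMM-scaled depth of 1e+06. All 10 pan-germ markers (Ddx4, Dazl and others) were detected in every library, and their summed level in Stra8KO was 817 to 819 CPM with Veh and 939 to 987 CPM with NRRA, and in Spo11KO 1638 to 1675 CPM with Veh and 1801 to 1858 CPM with NRRA. The 16 fibroblast markers summed to 28890 to 29410, 44420 to 45050, 15020 to 15180 and 22670 to 23320 CPM in the same order. The 10 markers of undifferentiated spermatogonia summed to 631 to 637, 590 to 595, 1379 to 1402 and 312 to 314 CPM. The 8 Sertoli markers summed to at most 50.1 CPM, the 6 Leydig markers to at most 8.63 CPM, the 6 macrophage markers to at most 62.5 CPM and the 8 markers of later spermatocytes and spermatids to at most 23.4 CPM. Fshr of the Sertoli list and Insl3 and Lhcgr of the Leydig list had at most 3 counts in any library. Some other markers of these lists were read in every library. Others, such as Hsd3b1 and Cyp17a1 of the Leydig list, had a lowest count of 0. Of the Sertoli list, Sox9 (9.88 to 40.5 CPM), Wt1 (3.68 to 12.05 CPM) and Inha (1.61 to 5.12 CPM) were read in every library. So were Amh, Gata4, Cldn11 and Rhox5, at no more than 0.842 CPM. Star of the Leydig list was at 5.02 to 7.31 CPM. Stra8 transcript in Stra8KO was at 0.0895 and 0 CPM with Veh and at 8.16 and 7.85 CPM with NRRA, and in Spo11KO at 1.18 and 0.522 CPM with Veh and at 486 and 552 CPM with NRRA. The Stra8KO cultures thus reached a low level of the transcript upon NRRA. Spo11 counts did not fall in libraries that carry the Spo11KO label (values below). Gene-level counts do not show which exons were read, so the Spo11KO label was not checked by them. Nor do they show which exons of Stra8 were read in Stra8KO. By staining, the study reported no foci of the recombinase DMC1 upon NRRA in Spo11-deficient or in Stra8-deficient cultures. The cultures with the Spo11KO label are called cultures labelled Spo11KO from here on.

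Promoter sequences from RefSeq (GRCm38.p6, 250 bases before to 50 bases after a start site) were matched for 5 of the 6 genes. Spo11 had no entry. The windows of Prdm9, Mei1, Mei4 and Rec114 are shown, the first 3 because their NRRA effect differed between the genotypes by the test described below, and Rec114 for comparison, as a gene whose effect was not called different. Capitals mark matches, on either strand, to 5 motifs. The motif bound by STRA8 and MEIOSIN was searched as CNCCTCAG. The E-box, to which basic helix-loop-helix factors bind, was searched as CACGTG. An E2F-type motif, known from promoters of cell cycle genes, was searched as GCGGGAA. The half-site of the retinoic acid receptor, the DNA-binding effector of retinoic acid, was searched as AGGTCA. The CCAAT box, a common promoter element, was searched by the letters of its name.
Prdm9, chr17:15564305-15564604, minus strand: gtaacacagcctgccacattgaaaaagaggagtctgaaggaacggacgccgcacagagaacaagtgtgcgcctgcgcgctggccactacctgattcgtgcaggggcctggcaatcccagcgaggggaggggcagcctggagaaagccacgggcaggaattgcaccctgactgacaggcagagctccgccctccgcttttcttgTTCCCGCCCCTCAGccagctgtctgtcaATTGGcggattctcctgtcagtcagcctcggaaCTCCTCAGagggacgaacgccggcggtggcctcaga
Mei1, chr15:82082226-82082525, plus strand: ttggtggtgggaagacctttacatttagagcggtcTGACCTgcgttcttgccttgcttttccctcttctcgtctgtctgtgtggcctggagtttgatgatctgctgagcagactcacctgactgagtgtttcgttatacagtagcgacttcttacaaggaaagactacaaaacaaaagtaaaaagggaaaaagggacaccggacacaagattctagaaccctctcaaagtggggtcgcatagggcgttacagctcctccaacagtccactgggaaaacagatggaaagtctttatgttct
Mei4, chr9:81863420-81863719, plus strand: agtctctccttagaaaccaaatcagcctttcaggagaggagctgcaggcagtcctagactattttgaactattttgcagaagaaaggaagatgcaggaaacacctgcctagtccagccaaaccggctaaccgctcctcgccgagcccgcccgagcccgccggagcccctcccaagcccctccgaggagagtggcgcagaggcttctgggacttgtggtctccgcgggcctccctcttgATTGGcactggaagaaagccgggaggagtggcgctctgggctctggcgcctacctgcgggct
Rec114, chr9:58741510-58741809, minus strand: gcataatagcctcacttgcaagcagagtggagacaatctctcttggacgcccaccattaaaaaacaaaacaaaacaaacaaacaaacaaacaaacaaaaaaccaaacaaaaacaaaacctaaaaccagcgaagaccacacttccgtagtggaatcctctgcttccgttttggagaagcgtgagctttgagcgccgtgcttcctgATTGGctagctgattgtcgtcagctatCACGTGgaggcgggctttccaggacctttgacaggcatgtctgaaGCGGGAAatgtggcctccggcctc
The Prdm9 window held 2 matches to the STRA8-MEIOSIN motif, at -41 and +14 from the start site, and the first of them overlaps a match to the E2F-type motif at -47 on the other strand. It also held a CCAAT box at -19. The other RefSeq window of Prdm9 (window 1, chr17:15563282-15563581) held none of the 5 motifs. The Mei1 window held a half-site at -215 and no STRA8-MEIOSIN motif, and its start site lies inside the annotated gene rather than at its outer end. The Mei4 window held a CCAAT box at -12 alone, and the Rec114 window held a CCAAT box at -46, an E-box at -19 and an E2F-type motif at +26. The Rec114 start site (58741559) likewise lies inside the annotated gene, whose outer end is at 58743964. The Ankrd31 window (chr13:96748043-96748342) held none of the 5. Among 32851 promoter windows of the same length, 7.94% held the STRA8-MEIOSIN motif, 7.15% the E-box, 4.6% the E2F-type motif, 16.3% the half-site and 37.4% the CCAAT box. These matches are descriptions of letters in a window and were not tested for binding.

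**Figure D1:**
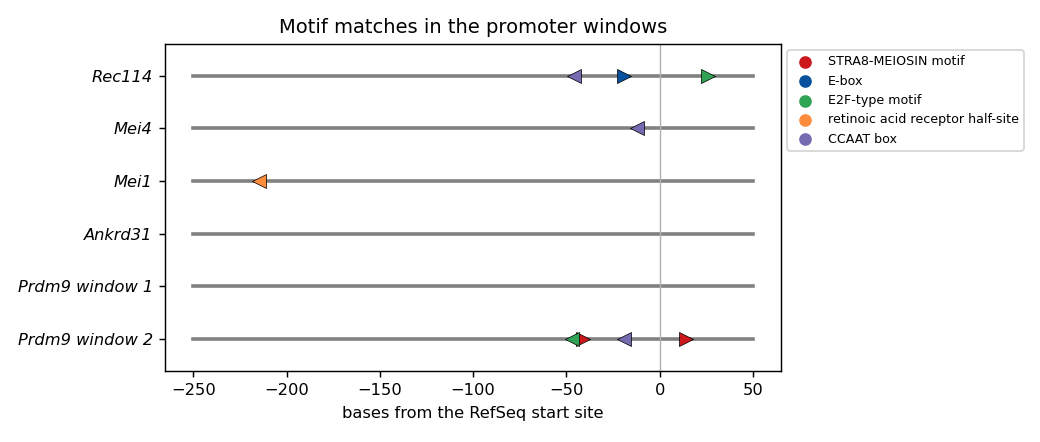
Position of the motif matches in the 6 RefSeq promoter windows of 5 break formation genes, in bases from the start site, with arrowheads pointing right for the strand of the gene and left for the other strand. Prdm9 window 2 (chr17:15564305-15564604) is the one window with matches to the STRA8-MEIOSIN motif, at -41 and +14.

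The genes were located by identifier in GENCODE (GRCm38, the build named in the labels as mm10). Spo11 (ENSMUSG00000005883) lies on chromosome 2 at 172977700 to 172993576 on the plus strand, and shares no bases with another gene. Rec114 (ENSMUSG00000074269) lies on chromosome 9 at 58652850 to 58743964 on the minus strand, and 344 of its 1277 exonic bases are shared with Nptn, which is read from the opposite strand. Mei4 (ENSMUSG00000043289) lies on the same chromosome at 81863670 to 82206007, plus strand. Mei1 (ENSMUSG00000068117) is on chromosome 15 at 82069996 to 82126814, plus strand, and Ankrd31 (ENSMUSG00000109561) is on chromosome 13 at 96748272 to 96910039, plus strand. Prdm9 (ENSMUSG00000051977) is on chromosome 17 at 15543079 to 15564354, minus strand. All 6 are protein coding, and the 5 other than Rec114 share no exonic base with another annotated gene. All 6 passed the filter on low counts, by which 20588 genes were tested.

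Spo11, the break enzyme, was measured in Stra8KO at 1.43 and 1.56 CPM with Veh (32 and 31 counts) and at 3.28 and 3.05 CPM with NRRA (68 and 66 counts). In the cultures labelled Spo11KO it was at 3.03 and 3.26 CPM with Veh and at 5.71 and 4.33 CPM with NRRA. The NRRA libraries lay above the Veh libraries in both genotypes, and the NRRA libraries of Stra8KO overlapped the Veh libraries labelled Spo11KO. With 31 to 148 counts a library, the 95% exact counting interval of a single library was wide, for example 0.979 to 2.02 CPM for Stra8KO Veh replicate 1.

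Rec114, of the accessory complex, was in Stra8KO at 10.6 and 8.46 CPM with Veh and at 13.4 and 12.2 CPM with NRRA. In the other genotype it was at 19.2 and 19.5 CPM with Veh and at 20.4 and 20.5 CPM with NRRA. The groups stood in that order without overlap, and the step between the media was smaller in the cultures labelled Spo11KO than in Stra8KO. Nptn, whose exons overlap those of Rec114 on the other strand, was at 229 ± 4.87 CPM (Veh) and 237 ± 9.8 CPM (NRRA) in Stra8KO, and at 148 ± 2.0 CPM (Veh) and 143 ± 1.7 CPM (NRRA) in the other genotype (SD, n = 2). The labels and the study's methods name different library kits, and the strand setting of the counting is not given in the sources used here, so the Rec114 level is uncertain. Between genotypes Nptn ran the other way to Rec114, being higher in Stra8KO by 0.63 in Veh and 0.73 in NRRA (log2).

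Mei4, its partner in the complex, was in Stra8KO at 2.24 and 2.22 CPM with Veh and at 2.70 and 1.75 CPM with NRRA. In the other genotype it was at 4.08 and 3.09 CPM with Veh and at 6.06 and 6.58 CPM with NRRA. The Stra8KO media overlapped, whereas the NRRA libraries labelled Spo11KO were the highest. The Stra8KO libraries had low counts of Mei4, 50 and 44 with Veh and 56 and 38 with NRRA.

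Mei1, also required for breaks, was in Stra8KO at 2.50 and 3.22 CPM with Veh and at 6.23 and 5.31 CPM with NRRA. In the other genotype it was at 3.41 and 3.44 CPM with Veh and at 12.5 and 13.5 CPM with NRRA. The Veh libraries of the genotypes lay close to each other, and the NRRA libraries lay above them in both genotypes and furthest in those labelled Spo11KO.

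Ankrd31, which encodes the partner of REC114, was in Stra8KO at 19.8 and 20.6 CPM with Veh and at 20.7 and 20.9 CPM with NRRA. In the other genotype it was at 38.8 and 43.5 CPM with Veh and at 51.0 and 47.5 CPM with NRRA. The Stra8KO libraries of both media lay close to each other, far below the libraries labelled Spo11KO.

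Prdm9, of the hotspots, was in Stra8KO at 3.13 and 3.12 CPM with Veh and at 2.94 and 2.77 CPM with NRRA. In the other genotype it was at 2.95 and 3.26 CPM with Veh and at 5.17 and 5.39 CPM with NRRA. The last group stood apart, and the other 6 libraries lay between 2.77 and 3.26 CPM.

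**Figure D2:**
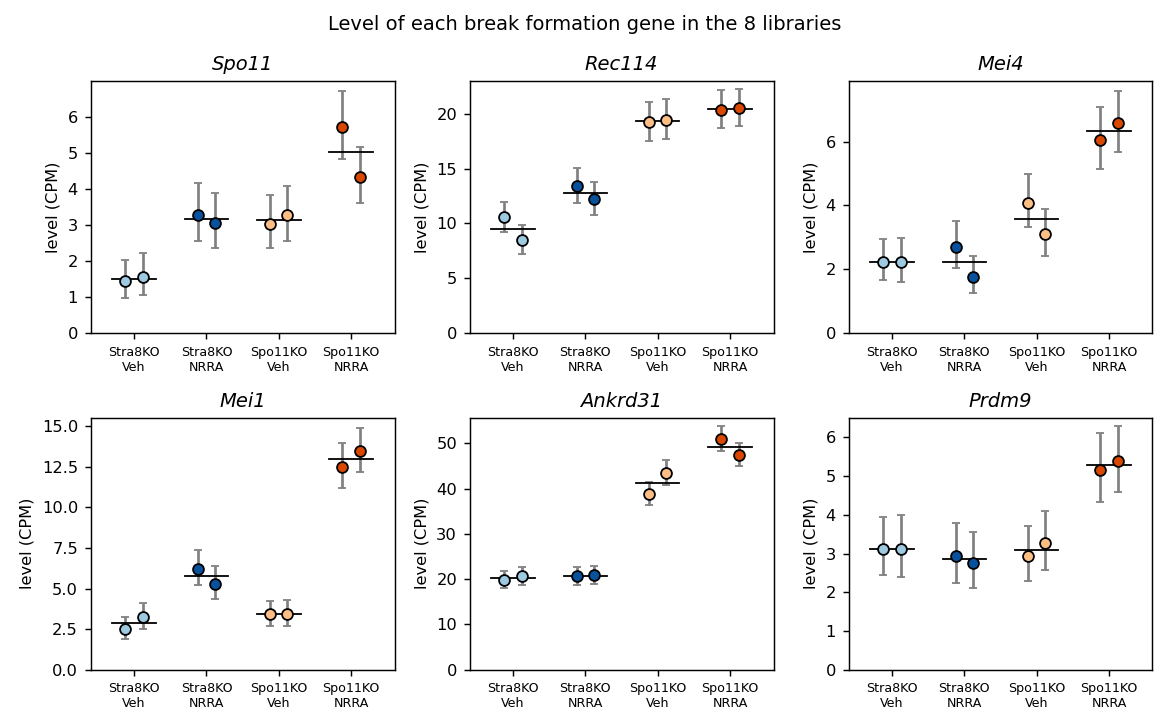
Level in CPM (linear axis from 0) of each break formation gene in the 8 libraries, by group. Points are libraries with their 95% exact counting intervals, and the bar is the mean of the group. Prdm9 is flat at 2.77 to 3.26 CPM in 6 libraries and at 5.17 and 5.39 CPM in Spo11KO NRRA, while Ankrd31 is split by genotype.

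Per length, Rec114 had the highest counted level and Ankrd31 the next in every group. The Rec114 level is uncertain, as some of its exonic bases are shared with Nptn on the other strand. Divided by the longest coding transcript, Rec114 was at 10.8 ± 1.68 CPM per kb in Stra8KO Veh and 23.2 ± 0.132 in Spo11KO NRRA, and Ankrd31 at 3.45 ± 0.0944 and 8.41 ± 0.425 (SD, n = 2). The other 4 genes lay between 0.606 and 3.34 CPM per kb over all libraries. In Stra8KO Veh these 4 ranged from 0.606 to 0.913 CPM per kb, and the libraries of Spo11 overlapped those of Prdm9 and of Mei4. In Spo11KO NRRA the libraries of Mei1 (3.03 and 3.26 CPM per kb) lay within the range of those of Spo11 (2.54 and 3.34), Mei4 was at 2.27 and 2.47, and Prdm9 was lowest at 1.49 and 1.56. The order of Spo11 depended on the length used. Per kb of all annotated exons, which count a retained intron in Spo11, it was at 0.365 and 0.398 in Stra8KO Veh, below the other 5 genes.

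The first question was what NRRA changed in the Stra8KO cultures. Here 3 of the 6 genes were called higher and none lower, beside 21.6% of all tested genes called higher, 20.2% called lower and 41.9% called in either direction (edgeR's quasi-likelihood test, Benjamini-Hochberg adjusted p under 0.05 over all tested genes). Spo11 rose by 1.08 (log2, SE 0.245, adjusted p 0.000277, edgeR), a fold of 2.11, and Mei1 by 1.02 (SE 0.18, adjusted p 5.5e-06, edgeR), a fold of 2.02. Rec114 rose by 0.42 (SE 0.113, adjusted p 0.00179, edgeR). The other 3 did not pass, at -0.0042 for Mei4 (95% interval -0.50 to 0.49), 0.04 for Ankrd31 (-0.13 to 0.21) and -0.13 for Prdm9 (-0.55 to 0.29). These intervals allow a rise of Mei4 or a fall of Prdm9 of the size of the change in Rec114, and bound Ankrd31 more closely. The libraries of the media did not overlap for 5 of the 6 genes, beside 69.4% of all tested genes. The median of the 6 changes was 0.23, and that of all tested genes 0.01. The Rec114 call rested on Stra8KO Veh replicate 2, without which the change was 0.28 (adjusted p 0.1, edgeR), and it was also lost when libraries were scaled to the pan-germ genes (0.19, adjusted p 0.176, edgeR).

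In the cultures labelled Spo11KO, 5 of the 6 genes were called higher upon NRRA and none lower, beside 24.5% of all tested genes called higher, 25.5% lower and 49.9% in either direction. Mei1 rose the most, by 1.92 (log2, SE 0.145, adjusted p 3.73e-16, edgeR) or 3.79-fold, and 2.09% of all tested genes had a larger change. Mei4 rose by 0.82 (SE 0.177, adjusted p 0.000112, edgeR) and Prdm9 by 0.77 (SE 0.176, adjusted p 0.00025, edgeR), both genes that did not pass in Stra8KO. Spo11 rose by 0.67 (SE 0.187, adjusted p 0.00238, edgeR) and Ankrd31 by 0.26 (SE 0.0653, adjusted p 0.000787, edgeR). Rec114 did not pass, at 0.08 (95% interval -0.10 to 0.26). The libraries of the media did not overlap for any of the 6 genes, beside 71.9% of all tested genes. The median change was 0.72, and that of all tested genes 0.01. The Spo11 call rested on NRRA replicate 1 labelled Spo11KO, without which the change was 0.45 (adjusted p 0.105, edgeR). The Ankrd31 change was 0.18 (adjusted p 0.0536, edgeR) without Veh replicate 1 labelled Spo11KO, and 0.12 (adjusted p 0.182, edgeR) when scaled to the pan-germ genes, so that the call was lost in both.

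**Figure D3:**
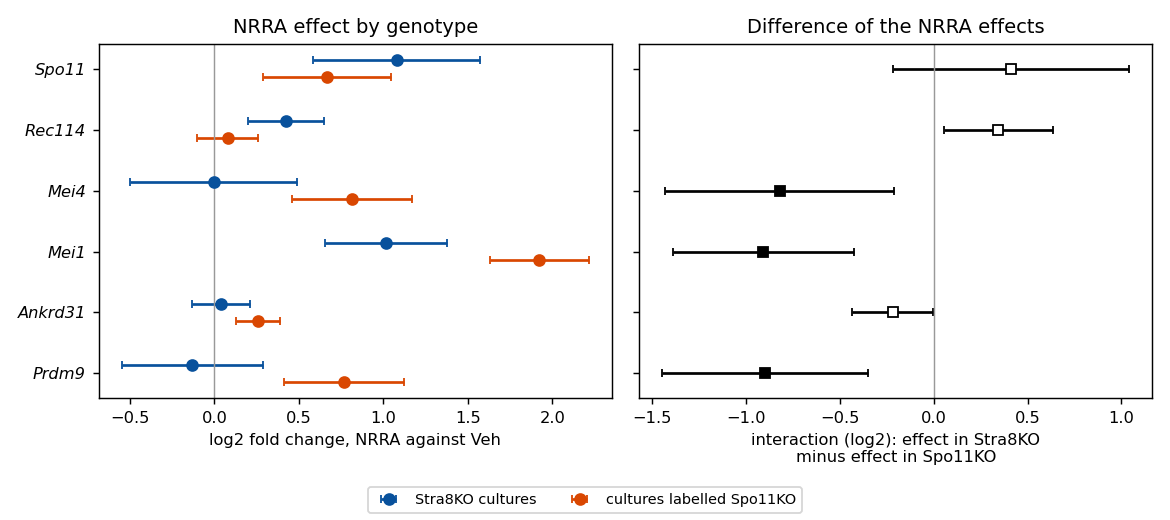
Left, log2 fold change upon NRRA with its 95% interval for each gene in each genotype (n = 2 libraries a group). Right, the interaction, which is the effect in Stra8KO minus that in the cultures labelled Spo11KO, filled where called; Mei4, Mei1 and Prdm9 lie at -0.82, -0.91 and -0.90.

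Whether the NRRA effects differed between the genotypes was tested by the interaction. Of the 6 genes, 3 were called, all with a lower value in Stra8KO, beside 10.3% of all tested genes called in that direction, 14.8% in the other and 25.1% in either. Prdm9 had an interaction of -0.90 (log2, SE 0.272, adjusted p 0.0106, edgeR), Mei4 one of -0.82 (SE 0.303, adjusted p 0.0398, edgeR), and Mei1 one of -0.91 (adjusted p 0.00308, edgeR). Of these 3, Mei1 alone passed the test of a rise in Stra8KO, to a mean of 5.77 ± 0.649 CPM (SD, n = 2) against 13.0 ± 0.689 CPM in the cultures labelled Spo11KO. The interaction did not pass for Ankrd31 (-0.22, 95% interval -0.43 to -0.0036), Spo11 (0.41, -0.21 to 1.04) or Rec114 (0.34, 0.05 to 0.63, adjusted p 0.0745, edgeR). For Spo11 and Rec114 the sign was the opposite one, a larger rise in Stra8KO. The 10 markers of undifferentiated spermatogonia all had a called interaction of that opposite sign (median 2.41), since all 10 fell upon NRRA in the cultures labelled Spo11KO (median -2.81) against 5 lower and 4 higher in Stra8KO (median -0.26). Of the pan-germ markers 4 of 10 and of the fibroblast markers 4 of 16 had a called interaction, with medians of 0.06 and -0.0058. Their part in the interaction of the break genes was not tested.

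The dependence of these calls on single libraries differed by gene. That of Prdm9 held in all 8 fits that left out 1 library (adjusted p 0.0148 to 0.0438, edgeR), and had an adjusted p of 0.0634 by DESeq2's Wald test. The Mei4 call was kept in 3 of the 8. It went to -0.82 and -0.83 without Stra8KO Veh replicates 1 and 2, to -0.54 without Stra8KO NRRA replicate 2, to -0.64 without Veh replicate 2 labelled Spo11KO and to -0.75 without NRRA replicate 2 labelled Spo11KO, with adjusted p of 0.0937 to 0.282 (edgeR), and its DESeq2 adjusted p was 0.147. The Mei1 call was lost without Stra8KO Veh replicate 2 alone (-0.72, adjusted p 0.0655, edgeR). The interaction of Rec114 was called without Stra8KO Veh replicate 1 (0.52, adjusted p 0.0226, edgeR), and that of Ankrd31 without Veh replicate 2 labelled Spo11KO (-0.30, adjusted p 0.0446, edgeR).

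Between the genotypes in Veh, 4 of the 6 genes were called lower in Stra8KO than in the cultures labelled Spo11KO and none higher, beside 30.7% of all tested genes called lower, 31.6% higher and 62.3% in either direction. Spo11 differed by -1.07 (log2, SE 0.242, adjusted p 0.00014, edgeR), Ankrd31 by -1.03 (SE 0.0758, adjusted p 9.49e-17, edgeR) and Rec114 by -1.02 (SE 0.104, adjusted p 4.56e-12, edgeR), that is each at about 0.48 to 0.49 of the level in the other genotype. Mei4 differed by -0.69 (SE 0.22, adjusted p 0.00586, edgeR), or by -0.47 (adjusted p 0.135, edgeR) without Veh replicate 1 labelled Spo11KO. Mei1 (-0.27, 95% interval -0.66 to 0.12) and Prdm9 (0.01, -0.39 to 0.41) did not pass. The libraries of the genotypes did not overlap for 5 of the 6, all but Prdm9, beside 79.7% of all tested genes. In bulk RNA, fewer germ cells and less RNA per germ cell cannot be told apart. The 10 pan-germ markers were all called lower in Stra8KO, with a median of -0.98, and the 16 fibroblast markers were all called higher, with a median of 1.00.

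Upon NRRA all 6 genes were called lower in Stra8KO, beside 28.9% of all tested genes called lower, 35% higher and 64% in either direction. The differences were -1.51 for Mei4 (log2, SE 0.197, adjusted p 3.63e-09, edgeR), -1.25 for Ankrd31 (SE 0.0729, adjusted p 1.79e-20, edgeR) and -1.17 for Mei1 (SE 0.135, adjusted p 1.15e-10, edgeR). Prdm9 differed by -0.89, Rec114 by -0.67 and Spo11 by -0.66. The libraries of the genotypes did not overlap for any of the 6, beside 80.8% of all tested genes. The median was -1.03, and that of all tested genes 0.07. The pan-germ and fibroblast lists again stood in full on either side, 10 of 10 lower with a median of -0.98 and 16 of 16 higher with a median of 0.97. Without NRRA replicate 1 labelled Spo11KO, the Spo11 difference was -0.46 (adjusted p 0.0842, edgeR).

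When libraries were scaled to the summed pan-germ counts in place of TMM, which moved the median of all tested genes by 1.02 in Veh and 0.92 in NRRA, the genotype differences of the break genes split by gene. In Veh, Spo11 (-0.06), Rec114 (-0.0017) and Ankrd31 (-0.01) were at the level of the pan-germ genes, with intervals of -0.57 to 0.45, -0.22 to 0.22 and -0.18 to 0.16. Mei4 was at 0.33 and did not pass. Mei1 (0.75, adjusted p 0.000786, edgeR) and Prdm9 (1.03, adjusted p 1.92e-05, edgeR) were called higher in Stra8KO, relative to these markers, as were 78% of all tested genes (median 1.02), with 1.67% called lower. In NRRA, Mei4 (-0.58) and Ankrd31 (-0.32) remained called lower, Rec114 (0.25, adjusted p 0.0234, edgeR) was called higher, and Mei1 (-0.25), Prdm9 (0.04) and Spo11 (0.26) did not pass. Of all tested genes, 78.1% were called higher and 3.43% lower there. The interactions of Mei1, Prdm9 and Mei4 remained called under this scaling, and that of Ankrd31 was called as well (-0.31, adjusted p 0.0441, edgeR), beside 14.5% of all tested genes called in that direction and 9.69% in the other.

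**Figure D4:**
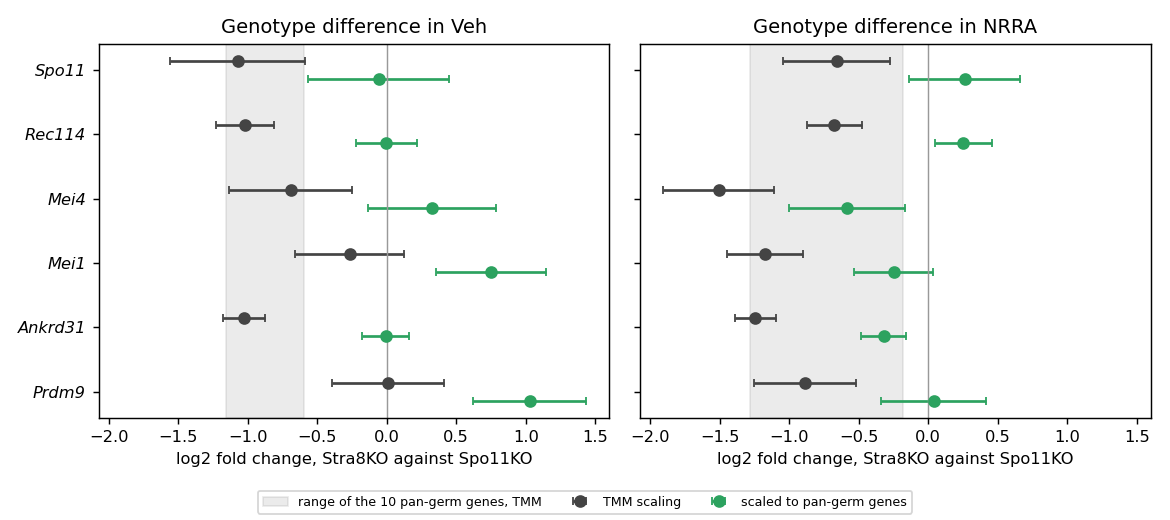
Log2 fold change of Stra8KO against the cultures labelled Spo11KO in Veh (left) and NRRA (right), with 95% intervals, after TMM scaling and after scaling to the 10 pan-germ genes; the grey band is the range of the pan-germ genes under TMM. In Veh, Spo11, Rec114 and Ankrd31 move from about -1 to about 0 and Prdm9 from 0.01 to 1.03.

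Counted against pan-germ counts directly, the 6 genes together had per 1000 pan-germ counts, in Stra8KO, 48.6 and 47.9 counts with Veh and 49.9 and 48.9 counts with NRRA. The other genotype had 43.7 and 45.4 counts with Veh and 56.0 and 52.6 counts with NRRA. The Stra8KO libraries lay between the media of the other genotype. Ankrd31 alone had 20.9 to 28.3 of these counts in each library, going from 24.3 and 25.2 to 20.9 and 22.2 upon NRRA in Stra8KO and from 23.7 and 26.0 to 28.3 and 25.6 in the other genotype. Mei1 went from 3.07 and 3.94 to 6.31 and 5.65 per 1000 in Stra8KO and from 2.08 and 2.05 to 6.94 and 7.25 in the cultures labelled Spo11KO. Prdm9 was at 3.83 and 3.81 in Stra8KO Veh and at 2.98 and 2.95 in Stra8KO NRRA, against 1.80 and 1.95 and then 2.87 and 2.90 in the cultures labelled Spo11KO. On this scale the NRRA libraries of the genotypes differed by less than 0.12 per 1000 for Prdm9, and the Veh libraries stood apart.

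Other genes of the pathway were taken from lists, whose counts stand beside 21.6% of all tested genes called higher and 20.2% lower upon NRRA in Stra8KO, 24.5% and 25.5% in the other genotype, and 25.1% with a called interaction. Of 4 further components of the break machinery (Top6bl, listed as Gm960, Iho1, listed as Ccdc36, Hormad1 and Hormad2), 1 was called higher upon NRRA in Stra8KO and 2 in the other genotype, none was called lower, and none had a called interaction. Hormad1, which encodes a protein of the unsynapsed chromosome axis, was in Stra8KO at 4.20 and 4.93 CPM with Veh and at 8.49 and 8.03 CPM with NRRA, and in the other genotype at 8.46 and 10.5 CPM with Veh and at 15.5 and 14.5 CPM with NRRA. It changed by 0.86 in Stra8KO and 0.66 in the other genotype (log2), beside the 1.08 and 0.67 of Spo11. Ccdc36, whose protein recruits REC114 and MEI4 to the axis, changed by 0.26 in Stra8KO (adjusted p 0.138, edgeR) and by 0.53 in the cultures labelled Spo11KO (adjusted p 4.57e-05, edgeR), with an interaction of -0.27 that did not pass. All 4 were called lower in Stra8KO in both media, beside 30.7% of all tested genes in Veh and 28.9% in NRRA. Under pan-germ scaling none was called lower (lowest -0.037 in Veh and -0.12 in NRRA), and 1 was called higher in NRRA.

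Of 7 genes that work with PRDM9 at hotspots or bind it, 2 rose and 3 fell upon NRRA in Stra8KO, while 4 rose and 1 fell in the other genotype, by the same calls. The interaction was called for 5 of them, 4 with a smaller and 1 with a larger value in Stra8KO. Zcwpw1, a reader of the PRDM9 mark, was in Stra8KO at 55.7 and 53.2 CPM with Veh and at 65.1 and 63.5 CPM with NRRA, and in the other genotype at 89.7 and 92.1 CPM with Veh and at 137 and 132 CPM with NRRA. It rose by 0.24 in Stra8KO and by 0.57 in the cultures labelled Spo11KO, and its interaction (-0.33, SE 0.0713, adjusted p 0.000271, edgeR) had the sign of that of Prdm9 at a smaller size.

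Downstream of the break, 8 genes of sensing and resection (Atm, Rbbp8 and others) had 2 called higher and none lower in Stra8KO upon NRRA. The other genotype had 3 higher and 1 lower. Of 9 genes of strand exchange, 8 were tested, and 2 were called higher and 2 lower in each genotype. Dmc1, the meiotic recombinase, was in Stra8KO at 7.47 and 8.21 CPM with Veh and at 6.76 and 7.06 CPM with NRRA, and in the other genotype at 10.8 and 13.4 CPM with Veh and at 17.8 and 19.0 CPM with NRRA. It changed by -0.18 in Stra8KO and rose by 0.61 in the cultures labelled Spo11KO, the pattern of Prdm9 and Mei4. Hsf2bp, which acts with BRCA2 in recombinase loading, rose in both, by 0.66 and 0.35. The median change upon NRRA in the cultures labelled Spo11KO was 0.72 for the 6 break formation genes, 0.29 for the other break machinery, 0.20 for the hotspot partners, -0.02 for sensing and resection and -0.11 for strand exchange, beside 0.01 over all tested genes. In Stra8KO the medians were 0.23, 0.24, -0.03, 0.02 and -0.16 in the same order, beside 0.01 over all tested genes.

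**Figure D5:**
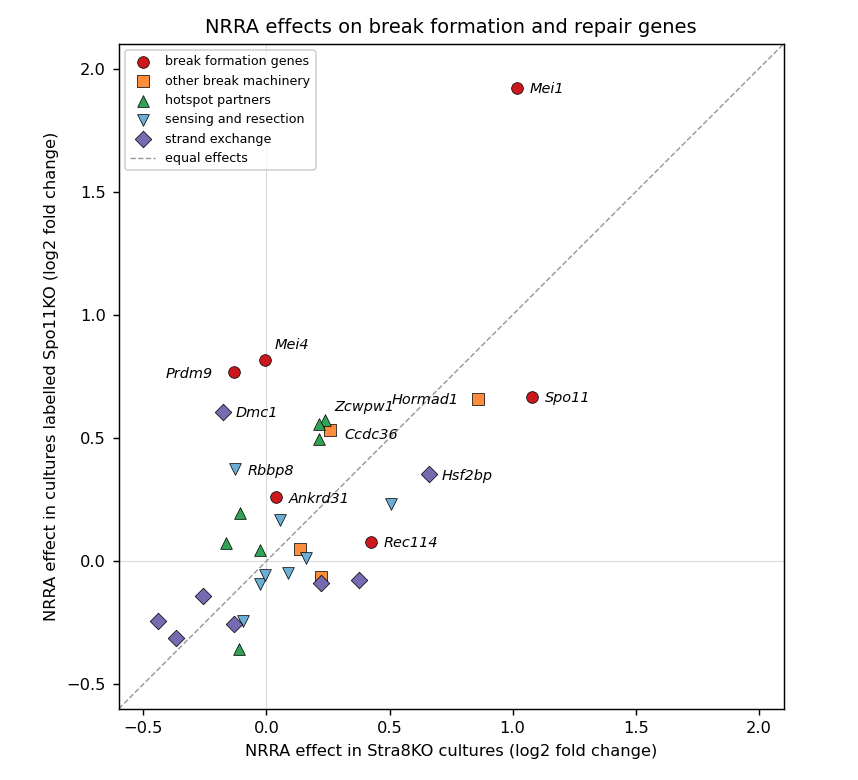
Log2 fold change upon NRRA in Stra8KO (x axis) against that in the cultures labelled Spo11KO (y axis) for the break formation genes and 4 lists of partner and repair genes, with a dashed line at equal effects. Mei1 is the highest at 1.02 and 1.92. Mei4, Prdm9 and Dmc1 lie to the left at about 0 on the x axis. Spo11, Rec114 and Hormad1 are among the genes below the line.

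Of 6 genes of meiotic entry, 4 were called higher upon NRRA in Stra8KO and 5 in the other genotype, beside 21.6% and 24.5% of all tested genes. Their median changes were 1.72 and 2.26. The list includes Stra8 itself, called higher in both genotypes (7.25 and 9.24). Meioc was at -0.03 and 0.47, with a called interaction of -0.50, and Ythdc2 at -0.04 and 0.03. Rec8, a meiotic cohesin subunit, rose by 3.76 and 2.46 (log2), Gm4969, which encodes MEIOSIN, by 2.43 and 2.35, and Sycp3, of the chromosome axis, by 1.01 and 2.16. Among the break genes, the change of Mei1 in both genotypes was nearest to that of Sycp3. The study lists Mei1, Sycp3 and Dmc1 among STRA8-dependent genes that NRRA raised in wild-type but not in Stra8-deficient cultures. Here Mei1 (1.02) and Sycp3 (1.01) were called higher upon NRRA in Stra8KO, and Dmc1 (-0.18) was not. The study called genes with DESeq2, and its wild-type libraries were not analysed here.

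The genes whose pattern was most like that of each break gene were ranked by the root-mean-square difference of log2 CPM, centred on the mean of the 8 libraries. For Spo11 they were Sec1 (0.11) and Hormad1 (0.13), for Rec114 Prkcq (0.06) and Dlgap5 (0.07), and for Mei4 Rnf32 (0.11) and Rapgefl1 (0.16). For Mei1 they were Fras1 (0.16) and Hcn2 (0.18), for Ankrd31 Rps6ka6 (0.04), and for Prdm9 Fnip2 (0.06) and Zhx3 (0.08). Hormad1 was the one gene of the break machinery among those named. Among the break genes, Rec114 and Ankrd31 were the closest pair, at 0.24, with 5.1% of tested genes closer to Rec114 than Ankrd31 was. Mei4 and Ankrd31 followed at 0.29, with 1.66% of tested genes closer to Mei4. Mei1 and Ankrd31 were the furthest apart, at 0.71. These are descriptions over 8 libraries that share their groups.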

How the data were processed

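Poly(A) RNA of SSC cultures was sequenced on an Illumina NovaSeq (8 libraries, 4 groups of 2, grouped by the labels). The authors deposited raw counts per Ensembl gene, whole numbers with no normalization. The submitters' processing notes name bcl2fastq, STAR 2.6.1c, featureCounts 1.6.4 and mm10. Annotation release, strand setting and the treatment of multi-mapping reads are not given in the sources used here. From the deposited counts, genes were filtered by filterByExpr (20588 kept, 99.88% of counts), scaled by TMM and fitted in 1 group-means model with edgeR 4.0.16 (R 4.3.3, limma 3.58.1, robust quasi-likelihood F test, two-sided, Benjamini-Hochberg, called at adjusted p under 0.05). CPM are per 1e+06 scaled counts, and errors are SD over 2 libraries. Counting intervals are exact (95%) and cover counting error only. DESeq2 1.42.0 was the alternative test, beside other scalings, filters, a replicate block and each library left out in turn. The common biological coefficient of variation was 3.39%. Positions and exon lengths came from GENCODE (GRCm38), and promoters from RefSeq. Named genes were the 6 break genes, Stra8, list genes and the 2 nearest patterns per gene, of which 1 is not reported here. Named list genes, Nptn and the list totals were picked after their values were seen. The genes and lists were chosen with earlier results of these data known.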

Additional observations from a re-analysis of the deposited data

Results flagged for a closer look

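For 3 of the 6 break formation genes the NRRA effect differed between the genotypes by the interaction term (effect in Stra8KO minus effect in the cultures labelled Spo11KO, log2). These were Mei4 (-0.82, SE 0.303, adjusted p 0.0398, edgeR), Mei1 (-0.91, SE 0.24, adjusted p 0.00308, edgeR) and Prdm9 (-0.90, SE 0.272, adjusted p 0.0106, edgeR). Only that of Mei1 was also called by DESeq2's Wald test. Among named genes of the pathway, the term was called for Zcwpw1 (-0.33), Hells (-0.31), a helicase that opens chromatin at hotspots with PRDM9, Rbbp8 (-0.50), which encodes the resection factor CtIP, and Dmc1 (-0.78). It was called with the other sign for Ewsr1 (0.25), which encodes a protein that binds PRDM9, and Brca2 (0.46), which encodes the loader of recombinases. Over all tested genes, 25.1% had a called interaction.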

How the results depend on the processing

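Members called in a comparison changed by over 1.5 times in few settings. Under pan-germ scaling, 2 of the 6 break genes were called between genotypes in Veh (both higher in Stra8KO) and 3 in NRRA (2 lower, 1 higher), in place of 4 and 6, while 79.7% and 81.5% of all tested genes were called. The interaction had 1 called gene by DESeq2's Wald test, at an adjusted p under 0.01 and without Stra8KO Veh replicate 2. With 1 library left out, where the lone library of a group is assumed to vary like the others, called break genes ranged from 2 to 3 upon NRRA in Stra8KO, 4 to 5 in the cultures labelled Spo11KO, 3 to 4 between genotypes in Veh, 5 to 6 in NRRA and 1 to 3 for the interaction, and all called genes from 6814 to 8890, 8970 to 10295, 11317 to 12875, 11723 to 13397 and 4041 to 4870. Signs turned under pan-germ scaling for the NRRA effects of Ankrd31 in Stra8KO (-0.20) and Rec114 in the cultures labelled Spo11KO (-0.065), for the Veh genotype differences of Mei4 (0.33), Mei1 (0.75) and Dmc1 (0.39), and for the NRRA genotype differences of Spo11 (0.26), Rec114 (0.25), Prdm9 (0.039) and Hormad1 (0.070). Near 0, the change of Mei4 in Stra8KO was 0.0026 with a mean of at least 10 counts, and -0.34 to 0.28 with 1 library left out (0.28 without Stra8KO NRRA replicate 2). Prdm9 between genotypes in Veh was -0.10 with total counts and -0.063 to 0.086 with 1 library left out. Ccdc36 in Stra8KO ranged from -0.024 to 0.57 with 1 library left out, and its interaction from -0.56 to 0.041, the ends being the fits without Stra8KO Veh replicate 1 and replicate 2. The cause of these changes was not tested, beyond the scale that pan-germ scaling sets by its construction. Total counts moved the median of all genes by -0.11 (Veh) and -0.21 (NRRA) between genotypes, called the interaction of Ankrd31 (-0.31), and moved the share of calls that were higher from 49% to 61.7% upon NRRA in the cultures labelled Spo11KO, from 54.8% to 39.5% between genotypes in NRRA and from 59% to 38.7% for the interaction. Pan-germ scaling moved that share to 22.5%, 31.5%, 97.9%, 95.8% and 40.1% in the 5 comparisons, and no filter beyond 1 count moved it to 45.9% for the interaction. With no such filter, 8246, 9915 and 4912 genes were called for the NRRA effects and the interaction, of 39921 tested.

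Correlations of replicate differences between groups were small (-0.08 to 0.15 over 14673 genes). The largest, 0.15, was that of Veh and NRRA labelled Spo11KO. A shared origin of same-numbered libraries is not stated in the sources used here and was not tested. With a replicate block, 8542, 10215, 12765, 13109 and 5140 genes were called in the 5 comparisons, and no call of a break gene changed. Depth limits Spo11, Mei4, Mei1 and Prdm9, which had 31 to 395 counts a library.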
